A study of Mus musculus with 10 samples.

Results

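The integrin subunit genes described here in microglia, the resident macrophages of the brain, are 10 in number, namely the β2 subunit gene Itgb2 with its α partners Itgam, Itgax and Itgal, the β1 subunit gene Itgb1 with its α partners Itga4, Itga6, Itga9 and Itgav, and the αv partner Itgb5. They were chosen by symbol among the 53697 genes of the files, and all 10 passed the count filter, as did 13916 genes in all. RNA-seq was done on microglia of female mice in 5 libraries labelled Bhlhe40/41 double knockout (DKO, Bhlhe40-/-Bhlhe41-/-) and 5 labelled wild type (WT, either C57BL/6J or Rosa26Stop-YFP, which of the 2 is not given for any library). None of the mice had been treated, the strains were kept on a C57BL/6 background, and ages of at least 2 and 6 months are given without saying which library had which. After perfusion, myelin removal and 2 rounds of sorting, cells were kept that were alive, carried CD45.2 and CD11b, and lacked Ly6C, Ly6G, MHCII and CD38. CD11b is the protein that Itgam encodes, so every library holds cells selected for the product of a gene described here. The knockout is global, so cells other than microglia also lacked both genes. The labels call each library a biological replicate, but do not say whether it came from 1 mouse or several. The p-values therefore cover the spread among libraries, which may be partly technical.

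Integrins are receptors made of an α and a β subunit that pair inside the cell and reach the surface only as a heterodimer. They bind matrix proteins, complement fragments or counter-receptors on other cells, and adaptors such as talin and kindlin at the β tail switch them on. Leukocytes carry the β2 family, of which complement receptor 3 (Itgam with Itgb2, also CD11b/CD18) is the form by which microglia are commonly recognised and by which they take up complement-tagged material. Receptors with β1 or αv bind laminins, fibronectin, VCAM-1 and RGD-containing proteins, and αv receptors with β5 or β8 take part in the handling of apoptotic cells or of latent TGF-β.

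BHLHE40 and BHLHE41 are basic helix-loop-helix repressors that bind the E-box CACGTG. RefSeq start-site windows (build GRCm38.p6, 250 bases before to 50 after the start, plus strand) were matched for 7 of the 10 genes, and those of the member with the largest fold change (Itgb1) and of the CD11b and CD11c genes are shown to let the E-boxes be read. Capitals mark CANNTG, the general E-box pattern, which reads the same on both strands and includes CACGTG.

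Itgam, chr7:128062390-128062689: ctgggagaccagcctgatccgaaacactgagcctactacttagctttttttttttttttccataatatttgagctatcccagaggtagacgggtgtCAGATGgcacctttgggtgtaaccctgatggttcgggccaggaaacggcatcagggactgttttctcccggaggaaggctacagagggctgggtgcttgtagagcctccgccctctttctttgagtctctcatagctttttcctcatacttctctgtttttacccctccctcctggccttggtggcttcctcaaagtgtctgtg
Itgax, chr7:128129300-128129599: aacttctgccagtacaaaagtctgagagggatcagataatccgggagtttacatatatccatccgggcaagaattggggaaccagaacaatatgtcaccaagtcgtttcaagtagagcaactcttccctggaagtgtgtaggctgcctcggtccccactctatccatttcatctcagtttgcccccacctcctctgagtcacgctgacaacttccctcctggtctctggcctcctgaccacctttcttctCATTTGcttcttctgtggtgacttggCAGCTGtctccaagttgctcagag
Itgb1, chr8:128685404-128685703: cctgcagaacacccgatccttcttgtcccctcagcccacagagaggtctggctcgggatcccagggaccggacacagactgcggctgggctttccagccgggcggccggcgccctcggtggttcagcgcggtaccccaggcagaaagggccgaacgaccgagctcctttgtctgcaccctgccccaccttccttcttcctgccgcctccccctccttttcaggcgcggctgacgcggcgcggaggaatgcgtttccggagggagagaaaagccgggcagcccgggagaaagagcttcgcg

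CACGTG was in 0 of the 7 windows, against 7.15% of all 32851 windows of this length, and CACGCG, searched on both strands, was also in 0 of 7, against 9.27%. CANNTG was in 5 of the 7 windows, against 72.3% of all. The windows of Itgam and Itga4 held 1 copy each, that of Itgax 2 and those of Itga9 and Itgb5 3 each, while those of Itgav and Itgb1 held none. The Itga9 window lies 105002 bases inside the gene as GENCODE draws it. A match is a run of letters and not a measured binding site, and Itgb2, Itgal and Itga6 were not matched.

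Itgb2 was the member whose RNA differed between the genotypes in every library and passed the test, as higher in DKO microglia. Of the 10 members, 1 was higher (Itgb2) and 0 were lower, while 4.34% of all genes tested were higher and 1.85% lower (edgeR quasi-likelihood test on rounded estimated counts, Benjamini-Hochberg adjusted p under 0.05 over 13916 genes). At an unadjusted p under 0.05, 3 members were higher and 1 lower. DESeq2 called 2 higher (Itgb2 and Itgb1) and limma voom 1, and both called 0 lower. Without WT 1 and WT 5, which lay apart from the other libraries, no member passed. The median log2 fold change of the 10 members was 0.26, beside -0.01 over all genes tested. In bulk RNA, a change in the number of cells that make an RNA and a change in RNA per cell cannot be told apart.

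**Figure D1:**
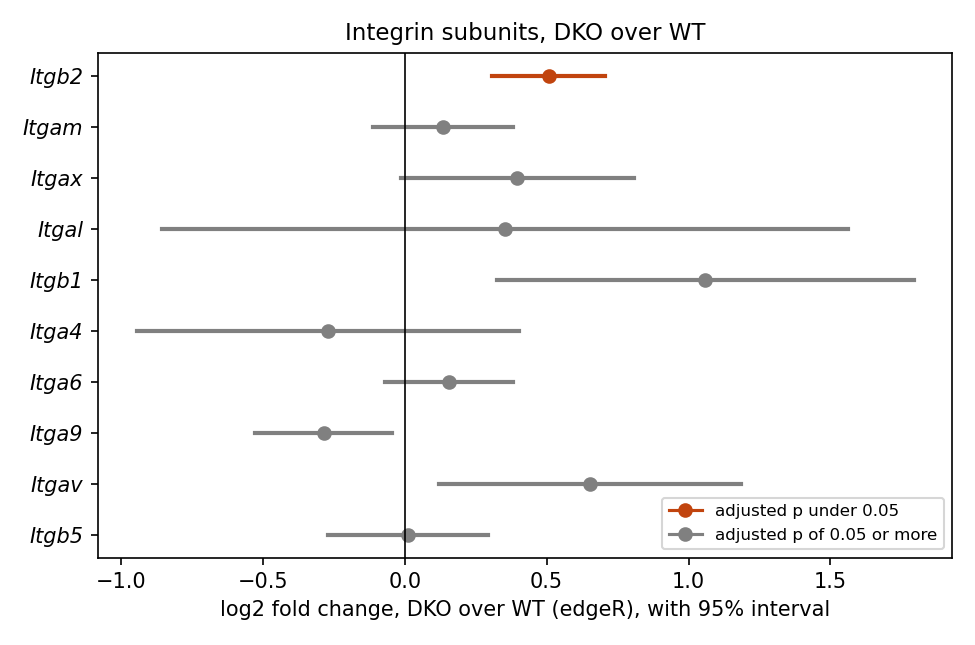
Log2 fold change, DKO over WT, of the 10 integrin subunit genes from edgeR, with 95% intervals as lines. Itgb2 (0.51, coloured) passed the threshold, and the intervals of Itgb1, Itgav and Itga9 (grey) also leave out 0 before adjustment over all genes.

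Facts of the libraries that touch these values were as follows. Estimated counts summed to 22483044 to 26109107 in DKO and 23381908 to 25870859 in WT libraries, and the biological coefficient of variation was 28.0%. Bhlhe40 had 1 to 8 counts in DKO and 4 to 28 counts in WT libraries, too few to test. Bhlhe41 RNA was not lower in DKO (50.9 ± 8.46 CPM, against 35.9 ± 6.67 CPM in WT, SD, n = 5 each; edgeR adjusted p = 0.0707), but its abundance-weighted transcript length was 2209 ± 362 bases in DKO and 5998 ± 96.4 bases in WT (SD, n = 5 each; limma adjusted p = 0.000912), with no overlap between the genotypes. Mitochondrial RNA took 1.04% to 1.58% of counts in DKO libraries and 0.986% to 1.75% in WT libraries, highest in DKO 3 and in WT 1 and WT 5. The 10 microglia markers summed to 77804 to 93980 CPM in DKO and 82707 to 91602 CPM in WT libraries, so both groups held microglia, and of those named here (Tmem119, P2ry12, Cx3cr1, Sall1, Siglech, Fcrls, Csf1r, Gpr34 and Olfml3) only P2ry12, a purine receptor, passed the test (7609 ± 974 CPM in DKO and 10766 ± 1335 CPM in WT, SD, n = 5 each; edgeR adjusted p = 0.0300).

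Of the markers of other cells named here, most were low or not called. Pf4 of border-associated macrophages rose (3.91 ± 1.55 CPM in DKO and 0.149 ± 0.138 CPM in WT, SD, n = 5 each; edgeR adjusted p = 0.000518) and the astrocyte transporter Slc1a3 fell (171 ± 21.1 CPM in DKO and 304 ± 56.5 CPM in WT, adjusted p = 0.00401), while Cd163 and Lyve1, which define border-associated macrophages, were at 0 in all libraries. The highest markers not called were Ighm of B cells (622 CPM in DKO and 489.8 CPM in WT), Gp9 of platelets (58.0 CPM in DKO and 54.1 CPM in WT), Mbp of oligodendrocytes (36.3 CPM in DKO and 42.6 CPM in WT), Mrc1 (11.1 CPM in DKO and 8.19 CPM in WT), Kdr of endothelium (8.99 CPM in DKO and 7.76 CPM in WT) and Camk2a of neurons (5.92 CPM in DKO and 3.69 CPM in WT). Of the platelet markers other than Gp9, Gp1ba was the highest (0.720 CPM in DKO and 0.690 CPM in WT, not called), and Gp1bb was at 0 in all libraries. The part of all these markers in the integrin values was not tested.

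The β2 family. Itgb2 (CD18, ENSMUSG00000000290.13, chromosome 10 of GRCm38, 77530252 to 77565708, plus strand) is the shared β subunit of the leukocyte integrins. It was read at 1290.4, 1209, 1055, 1177 and 1136 CPM in DKO 1 to 5, against 776, 932, 939.5, 794 and 688 CPM in WT 1 to 5, where CPM are TMM-scaled counts per 1e6 counts. The lowest DKO library, DKO 3, lay above the highest WT library, WT 3. Means were 1174 ± 87.1 CPM in DKO and 826 ± 108 CPM in WT (SD, n = 5 each), a 1.42-fold difference (log2 fold change 0.51, standard error 0.10, edgeR adjusted p = 0.0150). Over all genes tested, 7.62% had no overlap between the genotypes, and Itgb2 was the only one of the 10 members without overlap.

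The Itgb2 difference was higher in DKO under all 27 alternative settings and passed in 22 of them. Leaving out any 1 library gave a log2 fold change of 0.45 to 0.56 and an adjusted p of 0.00612 to 0.0463. It was not called without WT 1 and WT 5 together (0.40, adjusted p = 0.0552), in the libraries numbered 1 to 3 alone (0.42, adjusted p = 0.147), in those numbered 4 and 5 alone (0.64, adjusted p = 0.113), or on log2(TPM + 1) (0.14, adjusted p = 0.364; 0.44 and adjusted p = 0.0545 after rescaling TPM without the short RNA Gm23935). The 3 genes whose log2 CPM followed that of Itgb2 most closely over the 10 libraries, as a description of libraries that share 2 genotypes, were Cabin1 (Pearson r = 0.984), Cndp2 (0.983) and Prkch (0.971).

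**Figure D2:**
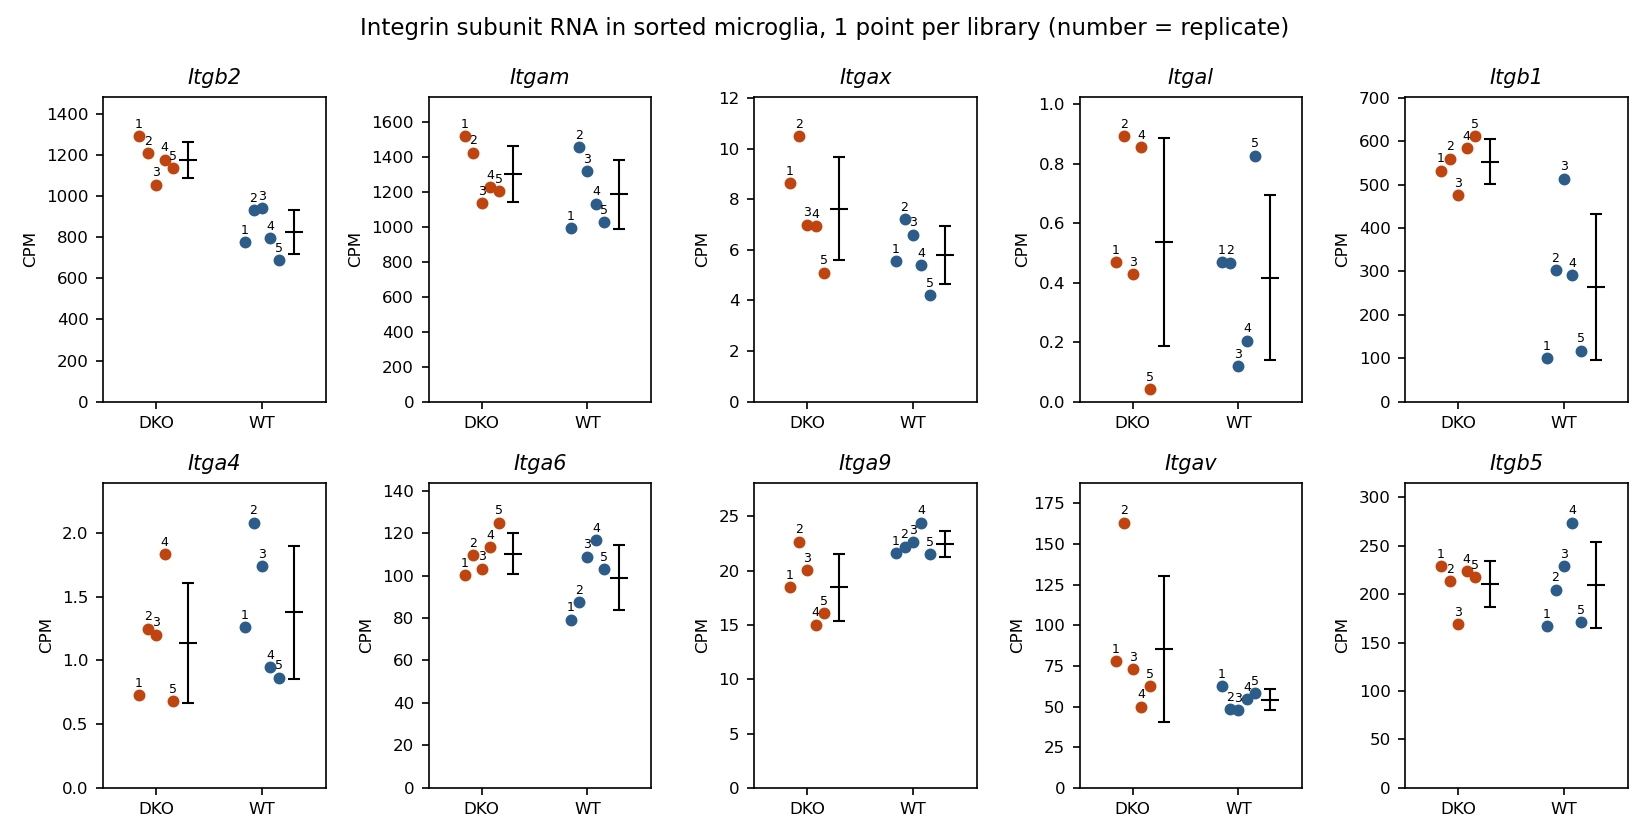
CPM of each integrin subunit gene, 1 point per library with its replicate number, DKO left and WT right, with the mean and SD of 5 libraries beside the points and a separate axis from 0 for each gene. Itgb2 is the panel in which the groups part (1055 CPM or more in DKO, 939.5 CPM or less in WT), and in the Itgb1 panel the WT libraries run from 99.9 to 514 CPM.

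Itgam (CD11b, ENSMUSG00000030786.18, chromosome 7, 128062640 to 128118491) encodes the α chain of complement receptor 3 and was the most abundant α subunit. It was read at 1519, 1425, 1138, 1228 and 1204 CPM in DKO 1 to 5, against 994, 1458, 1319.9, 1133.5 and 1029.6 CPM in WT 1 to 5. The groups overlapped over most of their range, with WT 2 above 4 of the DKO libraries. The log2 fold change was 0.13 with a 95% interval of -0.11 to 0.38 (edgeR adjusted p = 0.553). A same-strand gene, Gm49368, shares 3450 exonic bases with Itgam, and with 6.02 CPM in DKO and 7.75 CPM in WT it held few of the reads assigned to either.

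Itgax (CD11c, ENSMUSG00000030789.9, chromosome 7, 128129547 to 128150657), the α chain of complement receptor 4, begins 11055 bases after the end of Itgam. In amyloid models its RNA is a known mark of disease-associated microglia. It was scarce here, at 8.63, 10.5, 6.99, 6.93 and 5.10 CPM in DKO 1 to 5 and 5.55, 7.22, 6.60, 5.39 and 4.21 CPM in WT 1 to 5. DKO 1 and DKO 2 lay above every WT library, and the other DKO libraries lay within the WT range. The log2 fold change of 0.40 (95% interval -0.01 to 0.81) did not pass (edgeR adjusted p = 0.282).

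Itgal (CD11a, ENSMUSG00000030830.18, chromosome 7, 127296260 to 127335138), the α chain of LFA-1 on lymphocytes and other leukocytes, was near the limit of detection. It had 11, 20, 10, 21 and 1 counts in DKO 1 to 5 and 13, 11, 3, 5 and 22 counts in WT 1 to 5. At these counts the log2 fold change of 0.35 had a 95% interval of -0.86 to 1.56 (edgeR adjusted p = 0.764), so a difference of the size seen for Itgb2 was not detectable. Of other leukocytes that carry β2 integrins, the markers of B cells, which carry LFA-1, were not low, with sums of 526 to 886 CPM in DKO and 418 to 677 CPM in WT libraries, most of it Ighm, and those of 4 other kinds were. Neutrophil markers summed to at most 0.326 CPM in DKO and 0.301 CPM in WT libraries, with S100a8, S100a9, Camp, Ltf and Mmp8 at 0 in all of them. The highest were Mpo of neutrophils (0.117 CPM in DKO and 0.202 CPM in WT), Ccr2 of monocytes (5.21 CPM in DKO and 3.68 CPM in WT), Zbtb46 of dendritic cells (2.39 CPM in DKO and 1.01 CPM in WT) and Cd3d of T cells (1.34 CPM in DKO and 0.996 CPM in WT), of which none was called. Monocyte markers summed to 4.52 to 6.69 CPM in DKO and 3.04 to 6.02 CPM in WT, dendritic cell markers to 2.23 to 4.36 CPM in DKO and 2.29 to 3.04 CPM in WT, and T and NK cell markers to 0.978 to 1.67 CPM in DKO and 0.576 to 1.62 CPM in WT.

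The balance of α to β RNA was compared next, a comparison chosen after seeing that Itgb2 was higher and Itgam was not called, so it restates these values as a ratio and is not separate support for them. It was made per base of effective transcript length (RPKM, here TMM-scaled CPM per kilobase of the effective length in the files). The Itgam to Itgb2 ratio was 0.658, 0.641, 0.589, 0.584 and 0.599 in DKO 1 to 5, against 0.727, 0.878, 0.778, 0.782 and 0.844 in WT 1 to 5. No DKO library reached the lowest WT library. The log2 ratio was lower in DKO by 0.38 (-0.70 ± 0.08 in DKO and -0.32 ± 0.11 in WT, SD, n = 5 each; two-sided exact permutation test over the 252 splits, p = 0.00794, the smallest that 5 against 5 allow; Benjamini-Hochberg over 8 ratios 0.0476). With counts not divided by length the log2 difference was -0.37 (adjusted exact p = 0.0212). Leaving out any 1 library kept the difference between -0.42 and -0.35 and the groups apart, with an adjusted exact p of 0.0318 to 0.0635. It exceeded 0.05 without any 1 of the DKO libraries, without WT 1 and without WT 5. In each of these the unadjusted exact p stayed at 0.00794. The adjusted p thus moved with the p-values of the other ratios, on which it also depended with all libraries.

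For the scarce partners the ratios did not pass. Itgax to Itgb2 was 0.00302 to 0.00565 in DKO and 0.00456 to 0.00549 in WT (log2 difference -0.21, adjusted exact permutation p = 0.281), and Itgal to Itgb2 differed by -0.64 on the log2 scale (adjusted exact permutation p = 0.587).

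**Figure D3:**
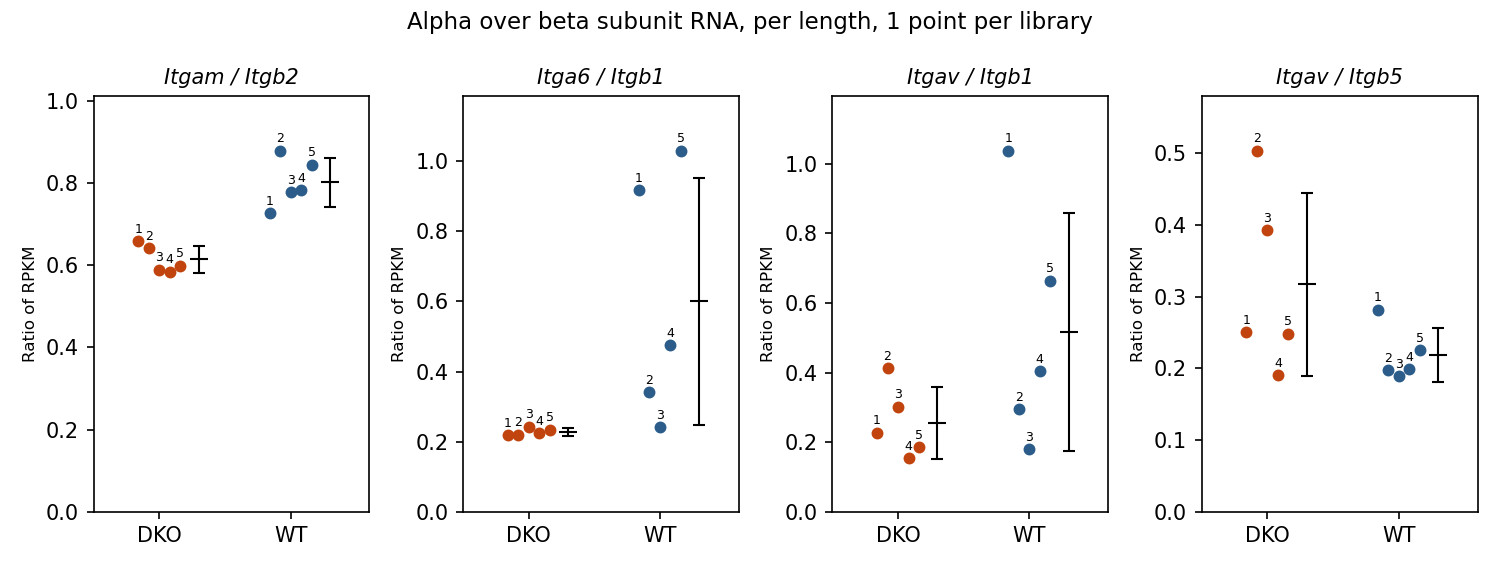
Ratio of α to β subunit RPKM for 4 pairs, 1 point per library with its replicate number, DKO left and WT right, with mean and SD of 5 libraries and axes from 0. The Itgam to Itgb2 ratios of DKO (0.584 to 0.658) lie below those of WT (0.727 to 0.878), and for Itga6 to Itgb1 the WT libraries spread from 0.241 to 1.03.

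The β1 family. Itgb1 (CD29, ENSMUSG00000025809.15, chromosome 8, 128685654 to 128733200), the β subunit of most laminin, collagen and fibronectin receptors, had the largest fold change of the 10 members but did not pass the test. It was read at 532, 559.9, 476, 583 and 611 CPM in DKO 1 to 5, against 99.9, 303, 514, 291 and 118 CPM in WT 1 to 5. DKO libraries lay close together, while WT libraries ranged widely, and WT 3 lay above DKO 3. Means were 552 ± 51.9 CPM in DKO and 265 ± 168 CPM in WT (SD, n = 5 each), 2.08-fold, with a log2 fold change of 1.06, a 95% interval of 0.33 to 1.79 and an adjusted p of 0.117 (edgeR).

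Among WT libraries the order by Itgb1, from WT 3 over WT 2, WT 4 and WT 5 to WT 1, was the reverse of the order by mitochondrial RNA (0.986%, 1.08%, 1.16%, 1.54% and 1.75% of counts). DKO 3, whose 1.58% lay between WT 5 and WT 1, had the lowest Itgb1 among DKO libraries, yet at 476 CPM it stood above WT 5 (118 CPM) and WT 1 (99.9 CPM). With mitochondrial percent as a covariate, a setting chosen after seeing the data, Itgb1 was called (log2 fold change 1.06, standard error 0.21, edgeR adjusted p = 0.0127) and Itgb2 was called too (0.46, adjusted p = 0.00523). Itgb1 was not alone in setting WT 3 near the DKO libraries. On the first principal component of log2 CPM, WT 3 (12.45) was next to DKO 3 (15.42), and WT 1 (-56.31) and WT 5 (-62.65) lay furthest away. Gm23935 took 20.3% of TPM in WT 3, 2.85% in WT 1, 6.60% in WT 5 and 23.2% in DKO 3. What the mitochondrial share stands for in these libraries was not tested.

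The Itgb1 call thus depended on the setting. Of the 27 alternatives, in all of which it was higher in DKO, 4 called it, namely the covariate above, DESeq2 (1.05, adjusted p = 0.0415), limma voom with the replicate number as a random effect (1.32, adjusted p = 0.0474) and edgeR without WT 3 (1.45, adjusted p = 0.0124). Without WT 1 and WT 5 together the log2 fold change was 0.58 (edgeR adjusted p = 0.131). It was 0.77 in the libraries numbered 1 to 3 (adjusted p = 0.501) and 1.55 in those numbered 4 and 5 (adjusted p = 0.204).

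**Figure D4:**
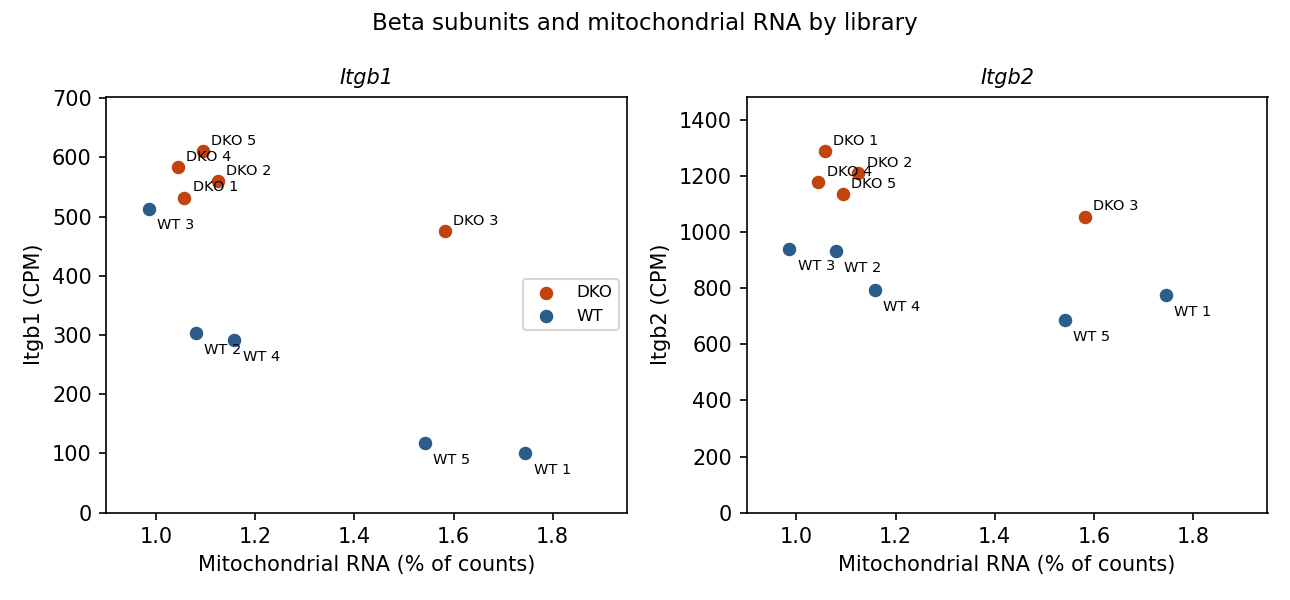
CPM of Itgb1 (left) and Itgb2 (right) against the percent of counts from mitochondrial genes, 1 labelled point per library. For Itgb1 the WT libraries run from 514 CPM at 0.986% to 99.9 CPM at 1.75%, and DKO 3 stands at 476 CPM at 1.58%. For Itgb2 every DKO library lies above every WT library.

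Itga6 (CD49f, ENSMUSG00000027111.15, chromosome 2, 71745616 to 71858416), a laminin receptor chain, had the highest CPM of the α partners of β1 in both genotypes (per length, Itgav stood above it in DKO). It was read at 100.3, 109.7, 103, 113 and 125 CPM in DKO 1 to 5 and 79.2, 87.4, 109, 117 and 103 CPM in WT 1 to 5. Only WT 1 and WT 2 lay below the DKO range. The log2 fold change was 0.16 with a 95% interval of -0.07 to 0.38 (edgeR adjusted p = 0.446).

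Itga4 (CD49d, ENSMUSG00000027009.18, chromosome 2, 79255426 to 79333123), the α chain of VLA-4, which binds VCAM-1 and fibronectin and is used by blood leukocytes to enter tissue, was at the limit of detection. It had 16 to 45 counts in DKO and 23 to 49 counts in WT libraries, or 1.14 ± 0.469 CPM in DKO and 1.38 ± 0.521 CPM in WT (SD, n = 5 each). The log2 fold change of -0.27 had a 95% interval of -0.94 to 0.40 (edgeR adjusted p = 0.671). Its exons share 1124 bases with the antisense gene Cerkl, and since the library kit does not mark strand, the reads of the pair cannot be told apart.

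Itga9 (ENSMUSG00000039115.13, chromosome 9, 118606690 to 118901003), which pairs with β1 to bind tenascin, osteopontin and VCAM-1, was read at 18.5, 22.7, 20.04, 15.04 and 16.1 CPM in DKO 1 to 5 and 21.6, 22.2, 22.6, 24.4 and 21.5 CPM in WT 1 to 5. All DKO libraries except DKO 2 lay below the lowest WT library. The log2 fold change of -0.28 (95% interval -0.53 to -0.04) had an unadjusted p of 0.0405 and an adjusted p of 0.194 with edgeR. With effective length as an offset it shrank to -0.10 (edgeR adjusted p = 0.839). The transcript length assigned to Itga9 ran from 3088 to 6512 bases in DKO and from 4119 to 5755 bases in WT libraries.

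The ratios of α partners to Itgb1 had the same denominator, and so the same wide WT spread. Itga6 to Itgb1 was 0.218, 0.220, 0.243, 0.224 and 0.235 in DKO 1 to 5, against 0.916, 0.341, 0.241, 0.475 and 1.03 in WT 1 to 5. WT 3 was the WT library that lay within the DKO range. The log2 ratio differed by -1.18 (exact permutation p = 0.0159, adjusted over 8 ratios 0.0476). For Itga4 and Itga9 over Itgb1 the log2 differences were -1.51 and -1.50 (exact permutation p = 0.0238 and adjusted p = 0.0476 for both). These 3 calls were lost without any 1 DKO library, without WT 1 and without WT 5, and that of Itga9 also without WT 4 (adjusted exact p 0.0635 to 0.127).

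The αv receptors. Itgav (CD51, ENSMUSG00000027087.11, chromosome 2, 83724397 to 83806916), the α chain of the RGD-binding vitronectin receptors, did not pass. It was read at 77.8, 163, 72.9, 50.1 and 62.7 CPM in DKO 1 to 5 and 62.4, 48.3, 47.9, 54.5 and 58.1 CPM in WT 1 to 5. DKO 2 stood far above all other libraries, and DKO 4 lay within the WT range. The log2 fold change was 0.65 (95% interval 0.12 to 1.18, edgeR adjusted p = 0.176), and without DKO 2 it was 0.28 (adjusted p = 0.332). An antisense gene, Gm13684, shares 634 exonic bases with it and was read at 4.97 CPM in DKO and 4.47 CPM in WT.

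Itgb5 (ENSMUSG00000022817.15, chromosome 16, 33829665 to 33949338), the β partner of αv in the receptor for vitronectin and the phagocytosis bridge MFG-E8, had 229, 214, 169, 224 and 217 CPM in DKO 1 to 5 and 167, 205, 229, 274 and 171 CPM in WT 1 to 5. The groups overlapped throughout. Its log2 fold change was 0.01 with a 95% interval of -0.27 to 0.29 (edgeR adjusted p = 0.974), and its sign was the same as in the main fit in 15 of 27 alternatives. The Itgav to Itgb5 ratio was 0.190 to 0.503 in DKO and 0.189 to 0.282 in WT (log2 difference 0.46, adjusted exact permutation p = 0.222), and Itgav to Itgb1 differed by -0.84 on the log2 scale (adjusted exact permutation p = 0.222).

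Per length, the members covered the whole range of expressed genes. In RPKM, Itgb2 had a mean level of 494 in DKO and 352 in WT, above 98.5% of tested genes in DKO and 97.8% in WT. Itgam followed at 304 in DKO and 283 in WT, then Itgb5 at 119.6 in DKO and 121 in WT. Itgb1 stood at 148 in DKO and 71.0 in WT, which put it before Itgb5 in DKO and after it in WT. Itga6 (33.6 in DKO and 31.2 in WT) and Itgav (37.3 in DKO and 25.97 in WT) formed a middle pair, and Itga9 (4.66 in DKO and 5.05 in WT) and Itgax (2.17 in DKO and 1.74 in WT) came after them. Itgal (0.224 in DKO) and Itga4 (0.148 in DKO and 0.171 in WT) lay above at most 6.37% of tested genes in DKO and 4.73% in WT.

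Several neighbours in this order were not apart. In WT the ranges of Itgb2 and Itgam, of Itgb5 and Itgb1, of Itgb1 and Itga6, of Itga6 and Itgav and of Itgal and Itga4 overlapped. In DKO the ranges of Itgb2 and Itgam no longer met, nor did those of Itgb1 and Itga6, while Itga9 and Itgax overlapped in DKO and not in WT.

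**Figure D5:**
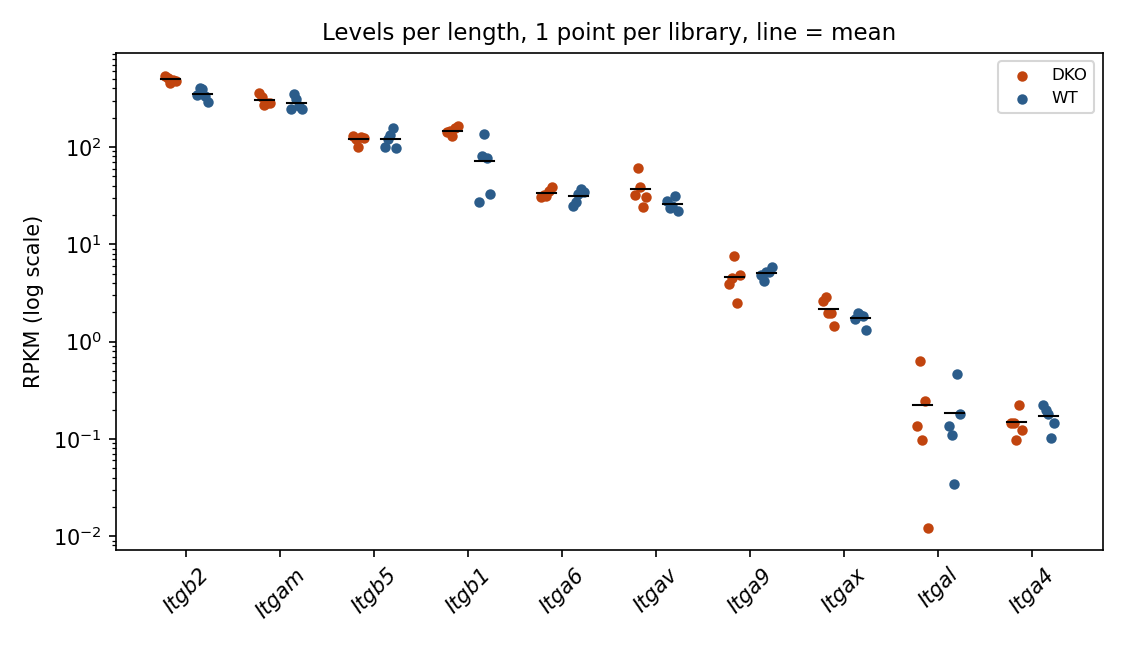
RPKM of the 10 members on a log axis, 1 point per library, DKO left of WT for each gene, lines at the means, genes ordered by their WT mean. Itgb2 and Itgam stand highest (means of 494 and 304 RPKM in DKO), Itgal and Itga4 lowest (0.224 and 0.148 RPKM in DKO), and Itgb1 is the gene whose WT points spread most among those above 1 RPKM.

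The transcript length that the files assign to each gene, a mean over isoforms weighted by abundance, did not differ for any member that could be fitted. It was tested with limma over 9352 genes, of which 0.0321% passed, and 0 members passed (1 at an unadjusted p under 0.05). That member was Itga6, with 3351 ± 53.7 bases in DKO and 3248 ± 61.6 bases in WT (SD, n = 5 each; log2 difference 0.05, limma adjusted p = 0.662). Itgb2 (2922 to 2943 bases in DKO and 2909 to 2930 bases in WT) and Itgb1 (3799 to 3815 bases in DKO and 3813 to 3815 bases in WT) varied too little to enter the fit. Itgam lay between 4408 and 4481 bases in DKO and between 4321 and 4477 bases in WT (adjusted p = 0.882). The lengths of the scarce Itgal and Itga4 ranged most, Itgal from 1755 to 5103 bases in DKO and from 704 to 5222 bases in WT.

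Among the 17 other integrin subunit genes, 5 passed the count filter and 0 were called by edgeR (1 at an unadjusted p under 0.05, and 1 by DESeq2 and by limma voom). Itgb3, which pairs with αv in vitronectin receptors, had 115 ± 7.04 CPM in DKO and 119.9 ± 31.0 CPM in WT (SD, n = 5 each; adjusted p = 0.854), and Itga5, the fibronectin receptor chain, 30.6 ± 8.38 CPM in DKO and 28.8 ± 6.61 CPM in WT (adjusted p = 0.828). Itgae, the CD103 chain, had 2.97 ± 1.04 CPM in DKO and 5.59 ± 0.950 CPM in WT with no overlap (log2 fold change -0.91, edgeR adjusted p = 0.0580), and 9 of 27 alternatives called it lower. Itgb2l was at 0 in all libraries. Itgb8, the αv partner in TGF-β activation, had 0.0532 CPM in DKO and 0.159 CPM in WT and was not tested.

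Of 33 genes for integrin adaptors and kinases, 29 were tested, of which 1 was higher and 1 lower (median log2 fold change 0.08). Beside this, 4.34% of all genes tested were higher and 1.85% lower. Both called genes of the list are kinases of the Src family. Fgr, which acts below β2 integrins in myeloid cells, rose to 16.99 ± 1.47 CPM in DKO, against 8.79 ± 2.40 CPM in WT (SD, n = 5 each; 1.93-fold, edgeR adjusted p = 0.0127). Src fell to 2.70 ± 0.389 CPM in DKO, against 5.37 ± 1.24 CPM in WT (SD, n = 5 each; 0.504-fold, edgeR adjusted p = 0.0140). The members of this list with the highest level per length that did not pass were Fermt3 (kindlin-3, 564 ± 71.9 CPM in DKO and 571 ± 49.8 CPM in WT, adjusted p = 0.932) and Lyn (1067 ± 45.6 CPM in DKO and 992 ± 37.9 CPM in WT, adjusted p = 0.374; SD, n = 5 each).

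Of 32 ligand genes, 17 had enough counts in these microglia to be tested, and 4 were higher and 2 lower in DKO (median log2 fold change 0.16). Among all genes tested, 4.34% were higher and 1.85% lower. The list was chosen with earlier results of these data known, so its count is a description. Vcam1, the counter-receptor of α4β1 and α9β1, rose to 45.6 ± 10.7 CPM in DKO, against 15.5 ± 3.02 CPM in WT (SD, n = 5 each; 2.95-fold, edgeR adjusted p = 0.000594). Icam2, a ligand of LFA-1, rose to 5.12 ± 1.73 CPM in DKO, against 2.06 ± 0.718 CPM in WT (SD, n = 5 each; 2.49-fold, edgeR adjusted p = 0.0306). Npnt, nephronectin, a ligand of α8β1, whose α chain Itga8 was at or near 0, rose to 102 ± 22.7 CPM in DKO, against 29.3 ± 18.8 CPM in WT (SD, n = 5 each; 3.49-fold, edgeR adjusted p = 0.0375). Thbs1, thrombospondin-1, rose to 23.7 ± 6.43 CPM in DKO, against 12.9 ± 2.10 CPM in WT (SD, n = 5 each; 1.84-fold, edgeR adjusted p = 0.0222).

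Jam3, a junctional ligand of Itgam with Itgb2, fell to 16.8 ± 2.90 CPM in DKO, against 39.1 ± 10.3 CPM in WT (SD, n = 5 each; 0.430-fold, edgeR adjusted p = 0.00432). Spp1, osteopontin, an RGD ligand of αv receptors and of α9β1, fell to 0.349 ± 0.153 CPM in DKO, against 2.00 ± 1.09 CPM in WT (SD, n = 5 each; 2 to 11 counts in DKO and 14 to 84 counts in WT; 0.176-fold, edgeR adjusted p = 0.0136). F11r, the JAM-A gene, and Hmgb1 had the highest levels per length of those that did not pass, and F11r had 1412 ± 221 CPM in DKO and 2002 ± 471 CPM in WT (SD, n = 5 each; edgeR adjusted p = 0.0907), Hmgb1 319 ± 15.1 CPM in DKO and 286 ± 33.6 CPM in WT (adjusted p = 0.320). The fibrinogen genes Fga, Fgb and Fgg, tenascin Tnc and laminin Lama1 were at 0 in all libraries. The Npnt call was lost without DKO 1, 2, 4 or 5 or WT 2, 4 or 5, that of Icam2 without DKO 2, 4 or 5 or WT 1 or 2, and that of Thbs1 without DKO 1 or 2 or WT 1, 4 or 5. Without WT 1 and WT 5 together the calls of Icam2, Thbs1 and Spp1 were lost. Over all their alternatives the adjusted p reached 0.316 for Npnt, 0.139 for Icam2 and 0.253 for Thbs1, with the same direction in each.

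Of 19 genes for surface partners of integrins, 15 were tested, and 3 were higher and 1 lower in DKO (median log2 fold change 0.20). Here too 4.34% of all genes tested were higher and 1.85% lower. This list was also chosen with earlier results of these data known. Plaur, the urokinase receptor, which has no tail of its own and sits beside β1, β2 and αv integrins, rose to 170.2 ± 20.1 CPM in DKO, against 18.5 ± 3.00 CPM in WT (SD, n = 5 each; 9.20-fold, edgeR adjusted p = 2.02e-07). The tetraspanin Cd9 rose to 2955 ± 106 CPM in DKO, against 1889.5 ± 75.9 CPM in WT (SD, n = 5 each; 1.56-fold, edgeR adjusted p = 0.000249). Adam9, a disintegrin metalloproteinase, rose to 89.6 ± 6.71 CPM in DKO, against 53.4 ± 3.07 CPM in WT (SD, n = 5 each; 1.68-fold, edgeR adjusted p = 0.000358). The tetraspanin Cd82 fell to 273 ± 16.998 CPM in DKO, against 353 ± 31.9 CPM in WT (SD, n = 5 each; 0.773-fold, edgeR adjusted p = 0.0262), a call that was lost without DKO 1, 2 or 5 or WT 1, 2 or 5, and without WT 1 and WT 5 together. Tyrobp, which carries signals of β2 integrins and TREM2, and Cd81 did not pass, with 2091 ± 326 CPM in DKO and 1826 ± 186 CPM in WT for Tyrobp (adjusted p = 0.343) and 5770.3 ± 494 CPM in DKO and 5577 ± 184 CPM in WT for Cd81 (SD, n = 5 each; adjusted p = 0.747). Plaur was called in all 27 alternatives.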

How the data were processed

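RNA of sorted microglia was sequenced in 5 DKO and 5 WT libraries from a kit that does not mark strand (TruSeq RNA v2). The authors' processing notes name cutadapt 2.6, FastQC 0.11.8, STAR 2.5.3a and mm10. For the counting tool, sources used here give no name. Per gene, the authors deposited an estimated count (not normalized), a TPM (scaled to a common total in each library), a transcript length and an effective length in bases. TPM was an alternative only, because the short RNA Gm23935 took 23.2% to 26.6% of the deposited TPM in DKO libraries and 2.85% to 20.3% in WT libraries.

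Estimated counts were rounded, filtered with filterByExpr (minimum count 10) and normalized by TMM. The main test was edgeR 4.0.16 in R 4.3.3 (glmQLFit and glmQLFTest, DKO over WT, no covariate), with Benjamini-Hochberg adjustment over 13916 genes at 0.05. The study's mixed model (dream) was not installed, so limma voom (limma 3.58.1, statmod 1.5.0) with a random effect stands among the alternatives, beside DESeq2 1.42.0. A standard error is the log2 fold change divided by the square root of its F value, and a 95% interval spans 1.96 of them on either side. Transcript length was tested with limma where its log2 SD was at least 0.01. Coordinates are from GENCODE M21, whose IDs matched 98.3% of those in the files. The edgeR test was tried on simulated counts and the limma length test on simulated log2 lengths, and the other tests were not tried in this way.

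The genes named are, by rule, the 10 members, the deleted genes, the called genes of each list with the 2 highest per length of those not called, the microglia markers, the highest and any called marker of each other cell type, and the 3 genes closest to a called member. Some markers that this rule takes are not reported here by name, but remain in the sums. Itgae, Itga8, Itgb8, Gp1ba, the other astrocyte markers and the genes at 0 were added for their values. Members and lists were chosen with earlier results of these data known, and the ratios of α to β subunits and the mitochondrial covariate after seeing the data. Alternatives were other scaling factors, filters and tests, an offset for effective length, a block or random effect for the replicate number, sets of replicate numbers, and each library left out in turn.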

Additional observations from a re-analysis of the deposited data

Results flagged for a closer look

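In CPM and in transcript length of the 10 members, each genotype was checked for a library far from its other 4, by the gap to the nearest library over the range of the group (Dixon's critical value 0.71 for 5 libraries). Of 40 such groups 4 stood out, where chance gives about 1 in 20.

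For Itgav, DKO 2 was at 163 CPM, and the nearest DKO library at 77.8 CPM (gap over range 0.755). For Itgb5, DKO 3 was at 169 CPM, and the nearest DKO library at 214 CPM (0.742). The transcript length of Itgb5 was 2371 bases in WT 5, and 2402 bases in the nearest WT library (0.773). That of Itgb1 was 3813 bases in WT 3, and 3815 bases in the other WT libraries (1.0), a difference of few bases.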

How the results depend on the processing

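Of 27 alternatives to the fit of each member (26 for Itgal, which did not pass the filter of at least 1 CPM in 5 libraries), only Itgb2 and Itgb1 changed sides of the threshold. The count of members higher in DKO, 1 in the main fit, was 2 with DESeq2, with the random effect of the replicate number and with the mitochondrial covariate, and 0 with log2(TPM + 1) with or without rescaling, in the libraries numbered 1 to 3 only, in those numbered 4 and 5 only, and without WT 1 and WT 5. It was 1 to 2 with 1 library left out. No alternative called a member lower or changed in transcript length.

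Over all genes, 604 were higher and 258 lower. Higher were 1071 with DESeq2, 962 with the random effect, 989 with the covariate, 198 and 47 in the libraries numbered 1 to 3 and 4 to 5, 313 without WT 1 and WT 5, and 281 to 1167 with 1 library left out (1167 without WT 3). Lower were 466 under upper-quartile factors, 447 under library size only, 558 with DESeq2, 4354 with log2(TPM + 1), 459 after rescaling TPM, 575 with a term for the sets of numbers, 83 and 7 within those sets, 135 without WT 1 and WT 5, and 120 to 448 with 1 library left out. Genes higher in DKO were 70.1% of calls in the main fit, 54.6% under upper-quartile factors, 53.7% under library size only, 11.97% with log2(TPM + 1), 53.4% after rescaling TPM and 59.8% with the term for sets. The median gene moved to -0.11 (log2) under upper-quartile factors and to -0.26 under log2(TPM + 1), so the values on those scales are relative to these shifts.

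Among the other integrin subunits 1, Itgae, was called by DESeq2, limma voom, upper-quartile factors, library size only, log2(TPM + 1) with or without rescaling, the random effect, the term for sets and the covariate, and 0 with any 1 library left out. Adaptors and kinases, 2 in the main fit, were 4 with library size only and after rescaling TPM, 14 with log2(TPM + 1), 5 with the term for sets, 1 and 0 within the sets numbered 1 to 3 and 4 to 5, and 2 to 4 with 1 library left out. Ligands, 6 in the main fit, were 3 and 0 within these sets, 3 without WT 1 and WT 5, and 3 to 8 with 1 library left out. Surface partners, 4 in the main fit, were 1 in the libraries numbered 4 and 5, and 3 to 5 with 1 library left out. The cause of these moves was not tested, other than that the subsets hold fewer libraries.

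Libraries of equal number in both genotypes did not deviate together in every pair (correlations of -0.31 to 0.25, over 0.1 in 3 of 5 pairs, and 1 DKO library closest to its own number). The labels do not say whether equal numbers were handled together, and these correlations cannot settle it. The main fit did not treat the replicate number as a pairing. With the replicate block 366 genes were higher and 181 lower, Itgb2 kept its call (log2 fold change 0.51, adjusted p = 0.0473), Itgb1 did not pass (1.32, adjusted p = 0.109), and Src, Npnt and Cd82 lost theirs.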
